A study of Sus scrofa with 50 samples.

Results

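The genes described here are the 10 that code for the T cell receptor's signalling complex, its coreceptors and its first kinases in the pig. They are CD3E, CD3D, CD3G and CD3Z (the protein entry name of the gene CD247), CD2, CD4, CD8A, CD8B, LCK and ZAP70. A transcript was taken as a member when its best protein match, with an E value of at most 1e-10, carried one of these entry names, and the TPM (a transcript's level scaled for its length and for the library's total) of all transcripts of an entry were summed. This found 19 transcripts among 57085 and gave 10 genes among the 14413 formed in the same way.

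A T cell recognises antigen through receptor chains that have almost no cytoplasmic part of their own, and the CD3 chains and the CD247 homodimer carry the signal inward through tyrosine motifs in their tails. CD4 binds MHC class II and CD8 binds MHC class I, and either coreceptor brings the kinase LCK to the complex, where LCK phosphorylates those motifs and ZAP70 docks on them. Lymph nodes are packed with T cells, whereas adipose tissue, muscle and the pituitary hold few, and pigs are known for peripheral T cells that carry CD4 and CD8 alpha together.

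The study sequenced poly(A) RNA of 5 tissues (lymph tissue, backfat, brain, loin and tenderloin) from 10 Korean minipigs, of which 5 were ET-type and 5 were L-type. The labels give neither the animals' age or sex nor what ET and L stand for. The same 10 animals gave all tissues, so each of the 50 libraries is one animal in one tissue, and animals are named here by their numbers. The rule leaves out 5 libraries, and the 45 used are 4 ET and 5 L lymph libraries, 5 ET and 4 L backfat, 4 ET and 4 L brain, 5 ET and 4 L loin, and 5 ET and 5 L tenderloin libraries. Each library's TPM sum to 1000000, so read depth cannot be recovered from the values and no interval for counting error is printed.

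Tissue markers were checked before the members were compared. The lymph libraries had the lymph node chemokine CCL21 at 1310 to 4650 TPM, and the highest of the other kept libraries had 80.8 TPM. The libraries labelled brain had pituitary hormone genes at a sum of 21000 to 83000 TPM, with the myelin gene MBP at 16.0 to 80.1 TPM, so by these markers they resembled pituitary. Among the 5 libraries left out, ET lymph S0235 had the kidney gene UMOD at 2160 TPM, L backfat S0355 had the muscle gene CKM at 23700 TPM, L loin S0355 had the adipocyte gene ADIPOQ at 1140 TPM, and ET brain S0235 and L brain S0355 had MBP at 30500 and 38000 TPM. These libraries go against their labels or against the other libraries of their tissue.

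By RefSeq annotation of the assembly Sscrofa11.1, CD3E (chr9:45619730-45633972), CD3D (chr9:45640475-45644153) and CD3G (chr9:45645243-45656779) lie side by side, as do CD8B (chr3:57968358-57986450) and CD8A (chr3:57999228-58029768). CD247 lies at chr4:83494266-83586887, CD2 at chr4:103963802-103976971, CD4 at chr5:63892129-63918547 and LCK at chr6:88719886-88745922. No position was found for ZAP70 under that gene name. CD3E, CD3D, CD3G, CD4 and CD8B each rested on 1 assembled transcript. CD8A, LCK and ZAP70 rested on 2 each, CD3Z on 3 and CD2 on 5. The matches covered the protein from residue 1 in CD3E (99.5% identity to the pig protein), CD3D (100%) and CD3G (99.5%), while the CD8A and CD8B transcripts reached 60.4% identity to dog CD8A and 60% to human CD8B.

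The invariant CD3 chains and the adhesion receptor CD2 were among the high members in lymph tissue. CD3E, the epsilon chain that pairs with either of the delta and gamma chains, had 503, 633, 628 and 523 TPM in the ET lymph libraries and 447, 576, 423, 750 and 406 TPM in the L lymph libraries. CD3G, the gamma chain, had 619, 931, 641 and 717 TPM in the ET lymph libraries and 571, 838, 331, 537 and 192 TPM in the L lymph libraries. The 2 types overlapped for each of these chains. CD3D, the delta chain, was lower at 123 to 223 TPM in ET lymph and 68.8 to 159 TPM in L lymph.

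CD3Z reached 407 to 692 TPM in ET lymph and 345 to 621 TPM in L lymph, and CD2, which binds CD58 on partner cells, reached 479 to 884 TPM in ET lymph and 272 to 602 TPM in L lymph. Over the 9 lymph libraries CD3G took on average 20.0% of the members' summed TPM, CD3E 19.1%, CD2 18.3% and CD3Z 17.8%, whereas CD3D took 5.21%.

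The coreceptors were lower. CD4 had 76.3, 57.8, 57.7 and 42.0 TPM in the ET lymph libraries and 41.6, 38.7, 71.9, 81.8 and 37.9 TPM in the L lymph libraries. CD8A had 78.2, 97.6, 163 and 49.1 TPM in the ET lymph libraries and 90.1, 105, 124, 97.0 and 42.2 TPM in the L lymph libraries. CD8A was above CD4 in every one of the 9 lymph libraries, and the ratio of CD4 to CD8A ran from 0.354 to 0.975 with a median of 0.592. CD8B, the beta chain that forms the CD8 heterodimer with CD8A, had 41.2 to 112 TPM in ET lymph and 27.4 to 86.8 TPM in L lymph, a ratio to CD8A of 0.350 to 1.46 with a median of 0.671.

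The 2 kinases also differed in level. LCK had 232 to 340 TPM in ET lymph and 161 to 273 TPM in L lymph, and ZAP70 had 91.9 to 118 TPM in ET lymph and 78.9 to 131 TPM in L lymph. ZAP70 varied least among the lymph libraries, with a coefficient of variation of 18.0% (n = 9), and CD8B varied most, at 40.4%.

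Lymph tissue stood above each of the other 4 tissues for every member. Differences are given on the scale of log2(TPM + 1) and were tested with limma over all 14210 genes that passed a mean of 0.1 TPM, with Benjamini-Hochberg adjustment, and a gene is called at an adjusted p under 0.05. All 10 members were called higher in lymph against backfat, where 43.3% of all genes tested were, against brain (20.8% of all genes), against loin (58.5%) and against tenderloin (60.6%). The median member difference was 6.48 against backfat, 6.31 against brain, 7.32 against loin and 6.86 against tenderloin, beside medians over all genes of 0.19, -0.49, 0.66 and 0.72.

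The size of the step was not the same for all members. CD3G averaged 597 TPM in lymph and 0.998 TPM in backfat, a ratio of means of 599, and CD3E averaged 543 TPM in lymph and 1.25 TPM in backfat, a ratio of 434. CD3Z averaged 513 TPM in lymph and 85.1 TPM in backfat, a ratio of 6.03, and 42.4 TPM in brain, a ratio of 12.1, although it was at 1.16 TPM in loin, a ratio of 441. ZAP70 averaged 97.6 TPM in lymph and 5.44 TPM in brain, a ratio of 17.9, where its ratios over backfat, loin and tenderloin were 141, 362 and 219. CD3Z in backfat and brain, and ZAP70 in brain, were thus the members with the least distance to lymph tissue. In whole tissue, fewer T cells and less RNA per T cell cannot be told apart.

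**Figure D1:**
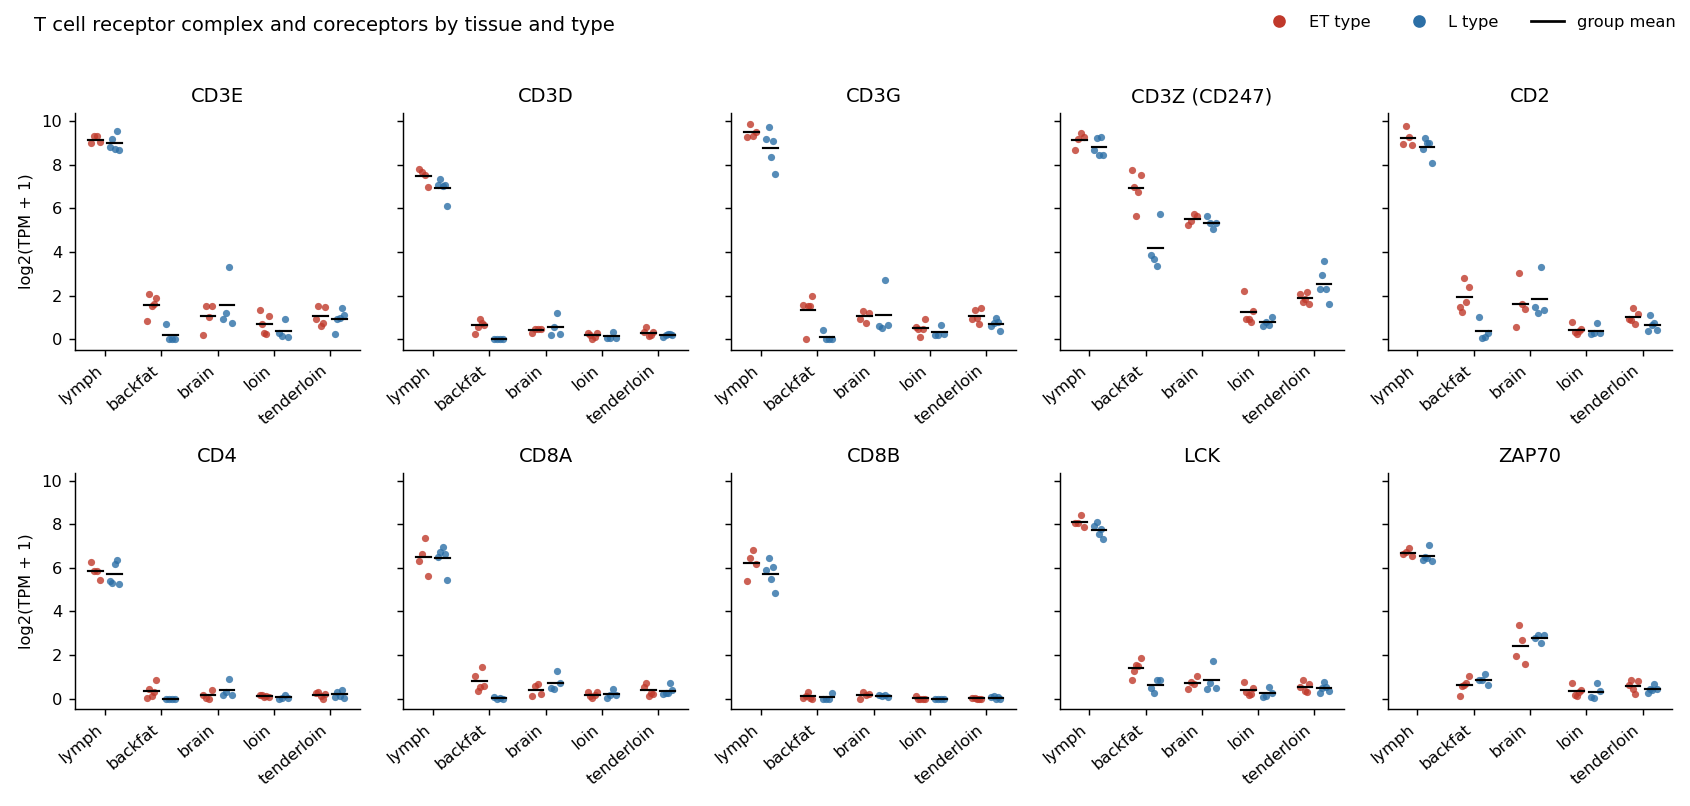
Level of each member in 45 libraries, as log2(TPM + 1), by tissue, with ET libraries to the left of L libraries; each point is 1 library and each line a group mean. Every lymph library lies above every other library in all 10 panels, and CD3Z alone stays high in backfat and brain, at 9.33 to 214 TPM.

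Outside lymph tissue most members had no called step between neighbours in the order of their levels, although tissues farther apart in that order did differ. CD3E averaged 2.09 TPM in brain, 1.06 in tenderloin, 1.25 in backfat and 0.537 in loin in the order of its mean log2 levels, and no neighbouring pair below lymph passed the test (adjusted p 0.246, 0.690 and 0.214, limma). CD3D, CD3G, CD4, CD8A, CD8B and LCK likewise had no called step between neighbouring tissues below lymph. Brain against loin was called higher for CD3E (adjusted p = 0.00609), CD3D (adjusted p = 0.0264), CD3G (adjusted p = 0.0134) and LCK (adjusted p = 0.00705, all limma). These members differed by 0.765, 0.327, 0.675 and 0.462, less than the median over all genes of 1.23, and 74.0% of all genes were called higher. LCK was also higher in backfat than in loin (adjusted p = 0.000106; 54.3% of all genes called) and than in tenderloin (adjusted p = 0.00247, limma; 56.8%). CD4 did not average more than 0.229 TPM and CD8B not more than 0.112 TPM in any of these tissues, near the lower end of what the tables hold.

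The members with called steps below lymph were CD3Z, ZAP70 and CD2. CD3Z did not differ beyond its spread between backfat and brain (log2 difference 0.12, SE 0.26, adjusted p = 0.674, limma) but was higher in brain than in tenderloin by 3.21 (SE 0.26, adjusted p = 7.3e-15) and lower in loin than in tenderloin by 1.21 (adjusted p = 0.000335). ZAP70, the kinase recruited to phosphorylated CD3 and CD247 tails, had 2.84, 9.40, 5.57 and 2.01 TPM in the ET brain libraries and 5.95, 6.47, 4.83 and 6.47 TPM in the L brain libraries. It was lower in backfat than in brain by 1.85 on the log2 scale (SE 0.17, adjusted p = 6.53e-13). CD2 was lower in backfat than in brain, by 0.58 (SE 0.26, adjusted p = 0.0413, limma). The median over all genes in that pair was -0.73, farther from 0 than CD2, and 62.8% of all genes were called lower.

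Over the pairs of tissues outside lymph the called members were 2 lower in backfat than in brain (62.8% of all genes), 4 higher in backfat than in loin (54.3%), 2 higher in backfat than in tenderloin (56.8%), 7 higher in brain than in loin (74.0%), 3 higher in brain than in tenderloin (75.8%) and 1 lower in loin than in tenderloin (8.29%). The medians over all genes were far from 0 in most of these pairs, for example 1.23 in brain against loin, where the median member difference was 0.57. After median-ratio scaling the median over all genes in brain against loin was 0.13 and 3 members were called higher. Leaving out L brain S0384 gave 1 member called higher in backfat than in brain.

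The wider signalling pathway was also highest in lymph tissue. Of 29 genes of T cell receptor signalling downstream of or beside the members, all 29 were called higher in lymph against backfat and against brain, and 28 against loin and tenderloin. PRKCQ, the theta isoform of protein kinase C, was the gene not called against tenderloin, with a difference of 0.35 (adjusted p = 0.257, limma). Among the smallest p-values against backfat were the kinase TXK (4.69), the adaptors GRAP2 (4.74), SH2D1A (5.62) and SIT1 (7.36), and the phosphatase UBASH3A (4.30). The list's median difference was 3.80 against backfat, beside 6.48 for the 10 members. Among the other tissues the list's genes went both ways, with 5 called higher and 9 lower in backfat than in brain, 13 higher and 3 lower in backfat than in loin, and 21 higher and 3 lower in brain than in loin.

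The receptor chains themselves were measured through their constant regions. Of 7 genes listed, 4 had an entry, and all 4 were called higher in lymph against each other tissue. TRBC2, the beta constant region, averaged 142 ± 22.3 TPM in ET lymph (SD, n = 4) and 133 ± 76.2 TPM in L lymph (n = 5), and TRAC, the alpha constant region, averaged 11.0 ± 3.25 TPM in ET lymph and 10.3 ± 5.11 TPM in L lymph. The gamma delta lineage, which is large in pigs, was also present. TRDC averaged 87.7 ± 41.4 TPM in ET lymph and 48.4 ± 12.0 TPM in L lymph, and TRGC2 averaged 81.2 ± 25.0 TPM in ET lymph and 52.8 ± 9.04 TPM in L lymph. Receptor gene segments and copies are similar in sequence, and transcripts of one chain may be matched to different entries, so these levels are uncertain. Another alpha chain entry, outside this list, averaged 544 TPM over the lymph libraries, so TRAC alone understates the level of the alpha chain.

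Between the types, no member passed the test in lymph tissue, where 0.00734% of all genes were called higher and 0 lower. All 10 estimates were above 0, with a median of 0.34 beside -0.08 over all 13618 genes tested. CD3G differed by 0.71 (95% interval -0.04 to 1.45, adjusted p = 0.887), CD3D by 0.58 (0.05 to 1.1, adjusted p = 0.887, unadjusted p = 0.0349) and CD8A by 0.03 (-0.72 to 0.78, adjusted p = 0.987, all limma). CD3D was the member with an unadjusted p under 0.05. Each interval allowed differences of 0.5 or more on the log2 scale.

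L lymph S0385 was the lowest of the 9 lymph libraries for all 10 members. Its summed member TPM was 1630, where the other 4 L lymph libraries had 2250 to 3370 and the ET lymph libraries 2810 to 3840. In the same library the B cell receptor gene CD79A was at 558 TPM and CCL21 at 4650 TPM, both within or at the top of the range of L lymph. Without it, as without any other lymph library, no member was called. None of the 7 B cell marker genes or the 6 myeloid genes was called between the types, and 0 estimates of either list were above 0, with medians of -0.61 for the B cell list and -0.35 for the myeloid list. The B cell list summed to 590 to 934 TPM in ET lymph and 517 to 1830 TPM in L lymph, and the part of these cells in the members' values was not tested.

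In backfat 4 members were called between the types. CD3E, CD3D, CD3Z and CD2 were called higher in ET than in L backfat, 4 of the 9 members that passed the filter, where 6.55% of all genes were called higher and 0.827% lower. CD8B, at 0 to 0.258 TPM, was below the filter. CD3D, listed at 0 in every L backfat library, passed the filter through its ET libraries alone. None of the 4 calls held without L backfat S0384, and apart from CD3Z the levels were low.

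CD3E had 0.770, 3.23, 1.88, 2.08 and 2.68 TPM in the ET backfat libraries and 0.607, 0, 0 and 0 TPM in the L backfat libraries. Every ET library was above every L library, and the difference was 1.42 (SE 0.27, adjusted p = 0.0161, limma). CD3D had 0.196, 0.471, 0.870, 0.693 and 0.583 TPM in the ET backfat libraries and was listed at 0 in all 4 L backfat libraries (adjusted p = 0.0369, limma), so no fold is given. CD2 had 1.79, 1.40, 5.92, 2.25 and 4.28 TPM in the ET backfat libraries and 1.04, 0.0318, 0.0848 and 0.233 TPM in the L backfat libraries, again with no overlap, and differed by 1.56 (SE 0.34, adjusted p = 0.0244, limma).

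CD3Z had 214, 125, 49.4, 108 and 182 TPM in the ET backfat libraries and 13.6, 11.8, 9.33 and 52.2 TPM in the L backfat libraries. The lowest ET library, S0276, lay below the highest L library, S0385, and the difference was 2.77 (SE 0.52, adjusted p = 0.0144, limma). This difference rested on shorter transcripts of the gene, as described further on. With CD3Z taken from its transcript that matched from residue 1, a choice made after the transcripts' values were seen, the difference was 0.00 with an adjusted p of 0.992. That transcript had 0.0997 to 0.672 TPM in the kept backfat libraries. The scale of log2(TPM + 1) understates differences at such levels, so this value cannot decide the type difference.

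The other members did not pass in backfat. CD3G had 1.92, 0, 1.86, 1.90 and 2.98 TPM in the ET backfat libraries and 0.326, 0, 0 and 0 TPM in the L backfat libraries (adjusted p = 0.0563, limma), and without ET backfat S0242, the ET library at 0, it was called (adjusted p = 0.00678). CD8A had 0.289 to 1.71 TPM in ET backfat and 0 to 0.0643 TPM in L backfat, with no overlap, and an adjusted p of 0.0562 (limma). CD8A was called after median-ratio scaling (adjusted p = 0.0482), with a pseudocount of 0.1 (adjusted p = 0.0161) and without ET backfat S0242 (adjusted p = 0.0453) or S0276 (adjusted p = 0.0478, limma). LCK had 0.831 to 2.67 TPM in ET backfat and 0.204 to 0.835 TPM in L backfat (adjusted p = 0.0657). CD4 had 0.0313 to 0.839 TPM in ET backfat and was listed at 0 in all 4 L backfat libraries (adjusted p = 0.241).

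ZAP70 had the opposite sign, with 0.0905 to 1.07 TPM in ET backfat and 0.552 to 1.22 TPM in L backfat (difference -0.26, SE 0.21, adjusted p = 0.463, limma). CD3E, CD3D, CD4, CD8A and CD2 had every ET library above every L library, 5 of the 9 members tested, and 11.4% of all genes tested did so. In L backfat CD3D and CD4 averaged 0 TPM and CD8A 0.0184 TPM. These members passed the filter through their ET libraries alone, so their order was partly set by the filter and is no independent support.

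The backfat calls depended on single libraries. Without L backfat S0384 no member was called in backfat, and the adjusted p was 0.0587 for CD3E, 0.103 for CD3D, 0.0520 for CD3Z and 0.0797 for CD2 (limma). Without ET backfat S0326, L backfat S0377 or L backfat S0385, 2 members were called, and CD3D and CD2 were lost. CD3D was also lost after median-ratio scaling (adjusted p = 0.0537) and without most single libraries.

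**Figure D2:**
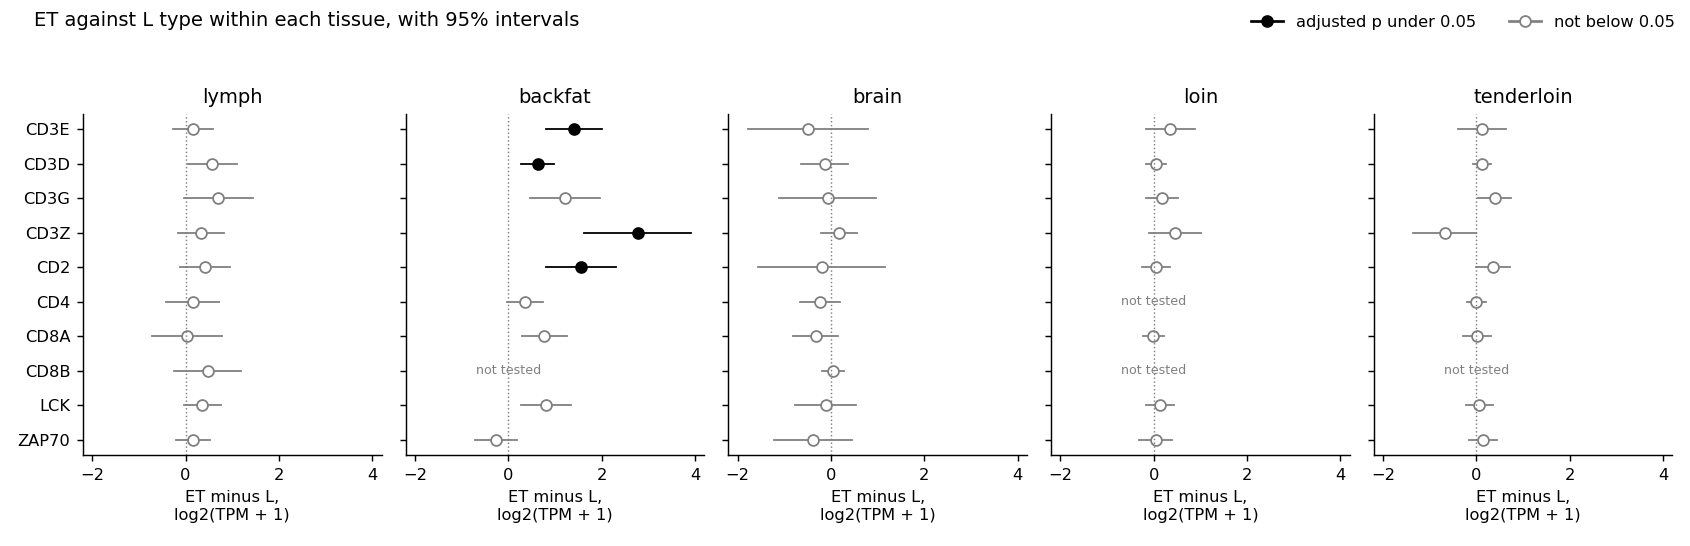
ET minus L difference of each member in log2(TPM + 1), by tissue, with 95% intervals from limma; filled points had an adjusted p under 0.05. In backfat CD3E, CD3D, CD3Z and CD2 are filled, and no member is filled in the other 4 tissues.

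Some genes of other blood-derived and resident cells were also called between the types in backfat. Of 14 natural killer and cytotoxic genes, 4 were called higher in ET, beside 6.55% of all genes. The summed TPM of the 14 was 68.9 to 258 in ET backfat and 12.6 to 48.2 in L backfat. The antimicrobial peptide NK-lysin (GNLY) averaged 61.2 ± 39.6 TPM in ET backfat (SD, n = 5) and 7.64 ± 7.44 TPM in L backfat (n = 4), the granzyme GZMA 2.85 ± 0.767 TPM in ET backfat and 0.421 ± 0.485 TPM in L backfat, and the natural killer receptor NCR1 1.17 ± 0.441 TPM in ET backfat and 0.0575 ± 0.0845 TPM in L backfat. GZMH was the other gene called in this list. CD247 is also the signalling chain of natural killer receptors.

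The myeloid list summed to 158 to 311 TPM in ET backfat and 53.8 to 145 TPM in L backfat. In it 2 of 6 genes were called higher, beside 6.55% of all genes. The 3 red cell genes summed to 95 to 647 TPM in ET backfat and 2.92 to 67.5 TPM in L backfat, with 2 called higher. Adipocyte genes summed to 8260 to 17800 TPM in ET backfat and 484 to 7360 TPM in L backfat, with 4 of 5 called higher. The B cell list summed to 16.3 to 24.6 TPM in ET backfat and 25.9 to 41.0 TPM in L backfat, with CD79A called lower and PAX5 listed at 0 in all 4 L libraries. CD79A made up most of that sum, at 11.5 to 16.8 TPM in ET backfat and 23.4 to 38.3 TPM in L backfat. Of the 4 B cell genes tested, 3 had estimates above 0, with a median of 0.38. The part of these cells in the members' difference was not tested.

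Other T cell genes in backfat were called less evenly, beside 6.55% of all genes called higher. Of the T cell receptor signalling list 1 of 28 tested was called higher, PTPRC (CD45, the phosphatase of all white blood cells), at 10.7 ± 5.59 TPM in ET backfat (SD, n = 5) and 0.672 ± 0.451 TPM in L backfat (n = 4). Of the receptor chains, TRGC2 was called, at 3.31 ± 2.15 TPM in ET backfat and 0.346 ± 0.335 TPM in L backfat. Among the co-stimulation genes 2 of 14 were called, CD5 and CD48. The homing and cytokine receptor list had 4 of 16 called, among them the integrin chain ITGB7 and the chemokine receptor CXCR5.

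Among the T cell transcription factors 3 of 14 were called, ZBTB7B, BCL6 and TBX21. ZBTB7B averaged 25.7 TPM in ET backfat and 10.3 TPM in L backfat, beside 21.5 TPM in ET lymph and 21.6 TPM in L lymph, and over both types it was called higher in lymph than in backfat, by 0.37 (adjusted p = 0.0381, limma). The median difference was 0.81 over the 9 members tested, 0.37 over the signalling list and 0.26 over all genes. For the other T cell lists it was 0.82 (homing and cytokine receptors), 0.52 (receptor chains), 0.22 (co-stimulation) and 0.14 (transcription factors). The last 2 lay below the median over all genes.

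In brain, loin and tenderloin no member was called between the types. The share of all genes called higher and lower was 0% and 0% in brain, 5.41% and 19.4% in loin, and 1.16% and 0.161% in tenderloin. CD4 and CD8B in loin and CD8B in tenderloin were below the filter. In brain, limma gave no member an unadjusted p under 0.05 and the largest estimate was that of CD3E, -0.49 (95% interval -1.78 to 0.79). In loin the estimates lay between -0.01 and 0.45, and none had an unadjusted p under 0.05. In tenderloin CD3G was at 0.39 (0.04 to 0.73, unadjusted p = 0.0304, adjusted p = 0.206) and CD3Z at -0.68 (-1.35 to -0.01, unadjusted p = 0.0476, adjusted p = 0.247).

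CD3Z in tenderloin had 3.19, 2.30, 2.55, 3.42 and 2.05 TPM in the ET libraries and 3.96, 6.74, 11.0, 3.87 and 2.08 TPM in the L libraries. All but 1 of the L libraries were above every ET library, the opposite order to backfat.

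Animal S0384 stood out in brain and loin. In the brain libraries CD3E had 0.137, 1.84, 1.01 and 1.87 TPM in ET and 0.906, 1.30, 9.04 and 0.654 TPM in L, the 9.04 TPM being S0384. CD2 was at 8.96 TPM and CD3G at 5.51 TPM in the same library, where the other 3 L brain libraries had 1.29 to 1.75 TPM and 0.436 to 0.550 TPM. Haemoglobin alpha was at 20.2 TPM there, where the other 3 L brain libraries had 0.961 to 11.6 TPM and the ET brain libraries 10.5 to 102 TPM. CD79A was at 16.5 TPM, within the range of the other L brain libraries, and CD68 at 14.0 TPM was the highest of the 8 brain libraries. CD3Z in that library, at 32.2 TPM, was the lowest of the brain libraries. In L loin S0384, CD3E was at 0.868 TPM and CD3D at 0.274 TPM, both above the other L loin libraries.

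A test of whether the ET minus L difference depended on the tissue, with the animal as a block, called CD3E (adjusted p = 0.0282), CD3Z (adjusted p = 0.00011) and CD2 (adjusted p = 0.0226, limma F test). The same test called 27.6% of all genes, a share near that of the members. The difference in backfat exceeded that in lymph by 1.25 for CD3E, 2.18 for CD3Z and 1.04 for CD2. CD3D, with an adjusted p of 0.0652, was not called, although it was called in backfat alone. After median-ratio scaling CD3Z alone was called, with adjusted p-values of 0.101 for CD3E and 0.0574 for CD2. CD3Z alone was also called without the animal block, with adjusted p-values of 0.0524 for CD3E and 0.0705 for CD2, and no member was called with all 50 libraries. The CD3Z call was lost with the transcript that matched from residue 1 (adjusted p = 0.403) and with 1 transcript per gene (adjusted p = 0.277, limma). The latter setting keeps a transcript whose share differs from animal to animal, as described further on, so it cannot decide the type difference. The transcript that matched from residue 1 had at most 0.672 TPM in backfat, too low to decide it either.

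CD3Z was measured through 3 transcripts that cover different parts of the protein. A transcript of 3288 bases assembled from L lymph matched residues 1 to 112 of the sheep protein at 90.2% identity. A transcript of 1576 bases assembled from L backfat and another of 1519 bases assembled from L brain each matched residues 55 to 163 at 90.8% identity. The shorter matches lack the start of the protein and hold its cytoplasmic end, and the annotation predicts 2 membrane helices in the longer transcript and 0 in each shorter one.

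The short transcripts carried most of the CD3Z signal in every tissue. They held 93.2 to 96.4% of the entry's TPM in lymph, 96.9 to 99.9% in backfat, 98.4 to 99.7% in brain, 86.2 to 100% in loin and 94.3 to 99.7% in tenderloin. The long transcript averaged 25.8 TPM in lymph, 0.338 TPM in backfat and 0.327 TPM in brain. The short transcripts averaged 487 TPM in lymph, 84.7 TPM in backfat and 42.1 TPM in brain. In backfat the short transcripts had 49.0 to 214 TPM in ET and 9.15 to 51.5 TPM in L, while the long one averaged 0.334 TPM in ET and 0.343 TPM in L.

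The ratio of CD3Z to CD3E differed between tissues. It was taken in libraries with both at 0.1 TPM or more, and was 0.809 to 1.18 in lymph (median 0.907, n = 9). It was 22.5 to 278 in backfat (median 45.2, n = 6), 3.57 to 266 in brain (median 40.7, n = 8), 0.681 to 6.97 in loin (median 2.44, n = 8) and 1.16 to 21.1 in tenderloin (median 4.21, n = 10). The lowest ratio in brain was that of L S0384.

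**Figure D3:**
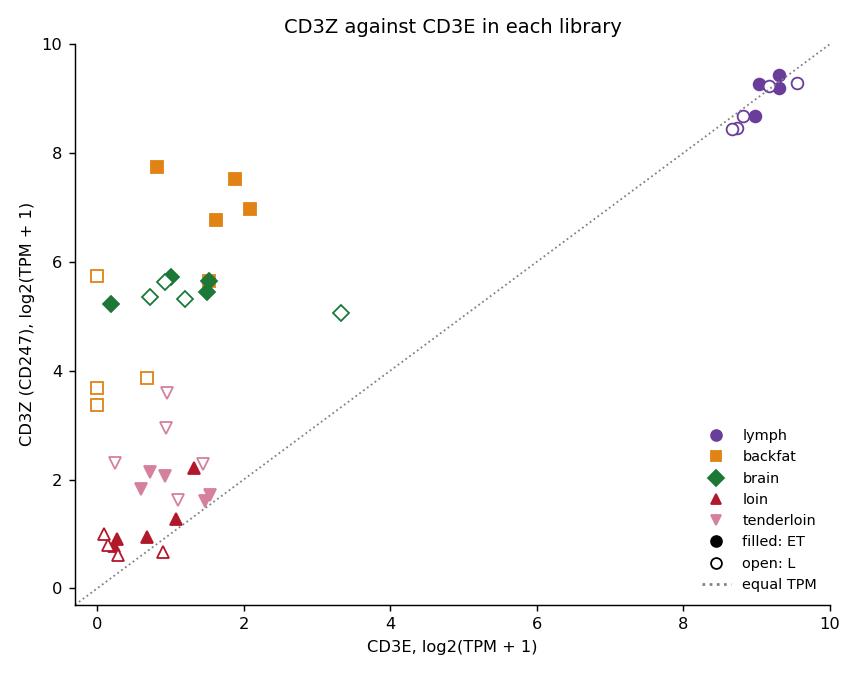
CD3Z against CD3E in 45 libraries, both as log2(TPM + 1), by tissue, with ET libraries filled and L libraries open; the dotted line marks equal TPM. The lymph libraries lie along the line, and the backfat and brain libraries lie far above it, with CD3Z at 9.33 to 214 TPM where CD3E is at 0 to 9.04 TPM.

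The split between the 2 short transcripts differed from animal to animal, and in 6 animals it was near 0 or near 100% in every tissue. The backfat-assembled transcript took 99.7 to 100% of their summed TPM in all 5 libraries of ET S0242, 99.6 to 100% in those of L S0349 and 99.7 to 100% in those of L S0384. It took 0 to 2.48% in ET S0235, 0 to 0.502% in ET S0326 and 0 to 2.55% in L S0355. The other 4 animals lay between, at 36.7 to 73.1% in ET S0276, 0 to 52.7% in ET S0309, 42.8 to 71.2% in L S0377 and 39.1 to 47.3% in L S0385. High, low and intermediate shares occurred in both types. In ET S0309 the share was 46.1% in lymph, 16.2% in backfat, 52.7% in brain, 0% in loin and 13.8% in tenderloin. The 2 transcripts summed to less than 1 TPM in its loin library, but had 17.4 and 90.0 TPM in its backfat library.

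The libraries that the rule left out had their animal's share, and all 5 were in animals with shares near 0, S0235 and S0355. With CD3Z read from the brain-assembled transcript alone, the one with the highest mean TPM of the 3, the ET minus L difference in backfat was 3.48 with an adjusted p of 0.212 (limma). That transcript had 0.0861 TPM in ET backfat S0242, where the backfat-assembled one had 124.7 TPM, and 0 in L backfat S0349 and S0384. The animals' split thus enters this value, which cannot decide the type difference. The transcripts' base sequences were not analysed here.

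**Figure D4:**
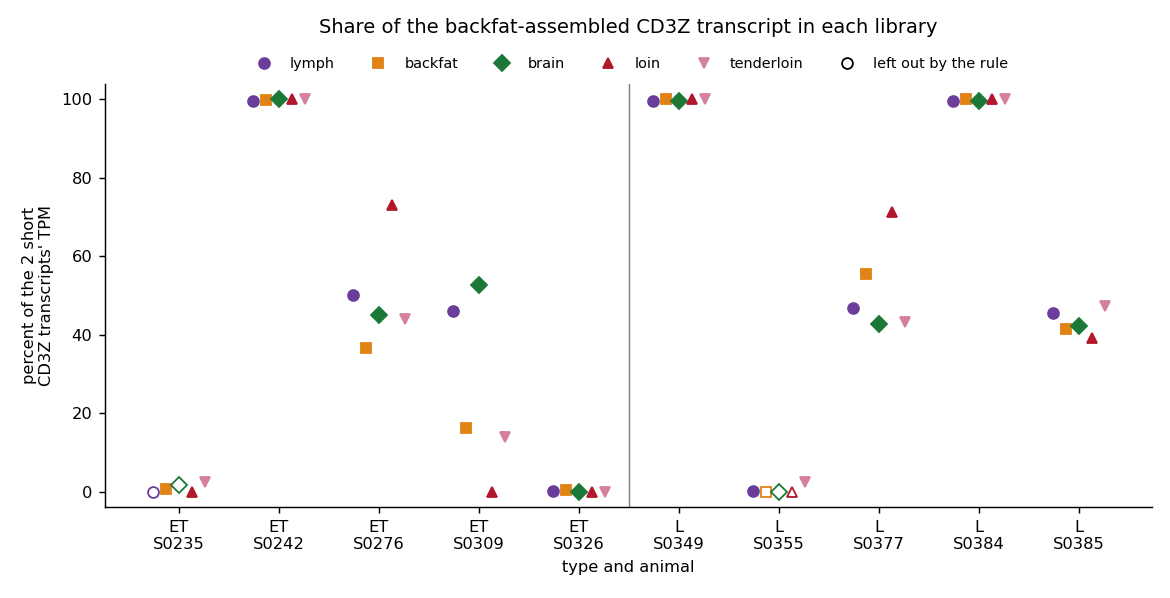
Share of the backfat-assembled transcript in the summed TPM of the 2 short CD3Z transcripts, in percent, for each of the 50 libraries by animal, ET animals left and L animals right; open symbols are the 5 libraries the rule leaves out. Within an animal the tissues lie together near 0, near 100 or between, with wider spread in S0276, S0309 and S0377.

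Ratios of members were compared between the types where every library of a tissue held both genes at 0.1 TPM or more. None of the 5 comparisons passed an exact two-sided permutation test. The mean log2 ratio of CD8B to CD8A was -0.27 ± 0.63 in ET lymph (SD, n = 4) and -0.72 ± 0.47 in L lymph (n = 5), a difference of 0.45 (exact permutation p = 0.286, adjusted p = 0.476). CD4 to CD8A differed by 0.12 (exact permutation p = 0.754) and CD3Z to CD3E by 0.16 (exact permutation p = 0.246) in lymph. CD3Z to CD3E differed by 1.14 in brain (exact permutation p = 0.543) and by -1.18 in tenderloin (exact permutation p = 0.206). The smallest p these designs allow is 0.00794 in lymph and tenderloin and 0.0286 in brain.

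Within tissue and type, the members other than CD3Z tended to deviate together. Over the 45 libraries, each taken as its deviation from the mean of its tissue and type in log2(TPM + 1), CD3E and LCK had a Pearson r of 0.76, CD3D and LCK 0.75, CD3G and LCK 0.69 and CD3G and CD2 0.68. CD8A was closest to CD3D (0.63) and CD8B to CD8A (0.48), while CD4 and CD8B had an r of -0.075. CD3Z had a median r of 0.04 with the other members, and ZAP70 0.25. These points share animals and libraries and are not independent, so the values are a description. Over all genes with a mean of at least 1 TPM, such deviations had a median r of 0.15 between tissues of the same animal (84 pairs) and -0.05 between tissues of different animals of a type (320 pairs).

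**Figure D5:**
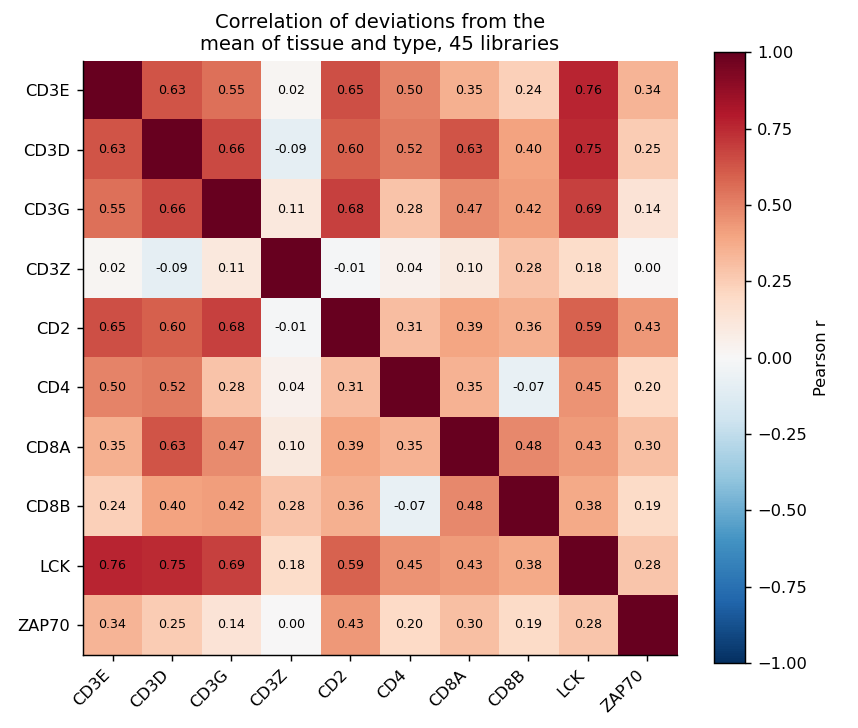
Pearson r between members over 45 libraries, each value taken as its deviation from the mean of its tissue and type in log2(TPM + 1). CD3E, CD3D, CD3G, CD2 and LCK form a block at 0.55 to 0.76, and CD3Z lies at -0.09 to 0.28 with the other members, pooled over tissues.

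The genes most like the members were sought among 13437 genes with a mean of at least 1 TPM, by Pearson r with the members' mean log2(TPM + 1). Over the 45 libraries the 8 closest included the surface receptor CD5 (r = 0.995), a granzyme H entry (0.994), a T cell receptor alpha chain entry (0.994), SLAM family member 5 (0.993), and RUNX3, CCR7 and CYTIP (0.992 each). CD5 averaged 260 TPM in lymph, 0.765 in backfat and 1.15 in brain. An r over all 45 libraries mainly follows the step between lymph and the other tissues, so genes high in lymph alone can reach such values. Over the deviations from the tissue and type means the 8 closest included CD96 (0.811), a T cell receptor gamma constant entry (0.780), TRAT1 (0.724), the alpha chain entry (0.711), PTPRC (0.707) and the adaptor FYB1 (0.700). The alpha chain entry was in both sets of 8.

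The 5 libraries outside the comparisons had members at levels unlike lymph tissue. ET lymph S0235 had CD3E at 3.13 TPM, CD3G at 2.20 TPM, CD2 at 5.25 TPM and CD3Z at 5.16 TPM, where the kept ET lymph libraries had CD3E at 503 TPM or more. L loin S0355 had CD3Z at 48.3 TPM, within the range of backfat and above the 0.540 to 3.65 TPM of the kept loin libraries, and L backfat S0355 had CD3Z at 7.28 TPM, below every kept backfat library. In the myelin-rich brain libraries ZAP70 was at 0.149 TPM in ET S0235 and 1.13 TPM in L S0355, below the 2.01 to 9.40 TPM of the pituitary-like ones, while CD3Z was at 29.4 and 92.6 TPM and CD2 in L S0355 was at 8.71 TPM.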

How the data were processed

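The authors deposited TPM per de novo assembled transcript for 50 libraries, with a table of each transcript's best Swiss-Prot match by BLASTX. Per the submitters' processing notes, Trimmomatic 0.36, Salmon 1.10.0 and the build Sscrofa11.1 were used; per the labels' protocols, libraries were stranded poly(A) preparations. The deposited TPM hold no read depth. The assembly names also mention lung and spleen, which were not analysed here. Members and gene lists were chosen with earlier results of these data known.

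Of 57085 transcripts, 32155 had a match at an E value of at most 1e-10 that was neither a repeat or retroviral protein nor outside animals. Their TPM were summed per entry name into 14413 genes, which held 80.3 to 93.0% of each library's TPM. Gene names are those of the matched entries, and related genes can share an entry. Values were tested as log2(TPM + 1), a scale that understates differences of low genes, with limma (3.58.1, R 4.3.3) and an intensity trend. Genes needed a mean of 0.1 TPM over the libraries of a fit, and p-values were adjusted by Benjamini-Hochberg over every gene in the fit. The filter was set this low so that low members could be tested, and a gene could pass it through 1 type alone. ET and L were compared within each tissue, tissues over 10 groups, and the interaction with the animal as a block. The fits were tested on simulated data. Ratios used an exact permutation test that went through every arrangement of a tissue's libraries between the types. Alternatives were a pseudocount of 0.1, other filters, median-ratio scaling, 1 transcript per gene, stricter matches, all 50 libraries, 1 common fit and leaving out single libraries. All members were named in each comparison, and from each list at most 6 called genes by smallest p. All tissues come from the same animals by the labels, which pairs them; the median correlation of deviations was 0.152 within an animal and -0.051 between animals. The closest 2 libraries correlated at 0.9856, so none was a copy. A few genes that these rules would name are not reported here.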

Additional observations from a re-analysis of the deposited data

Results flagged for a closer look

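A library was looked at again where its gap to the nearest of its group was large for the group's range (Dixon's test on log2(TPM + 1), 97 groups of 4 or 5 libraries checked, of which chance flags about 1 in 20). Among these, 3 came from L backfat S0349, the L backfat library with CD3E at 0.607 TPM, CD3G at 0.326 TPM and CD8A at 0.0643 TPM where the others had at most 0.00948 TPM. CD8B was at 0.185 TPM in L backfat S0385 and at 0 in the other 3, and CD3G was at 0 in ET backfat S0242 where the others had 1.86 to 2.98 TPM.

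L animal S0384 was flagged in 3 tissues. CD3G was at 5.51 TPM and CD2 at 8.96 TPM in its brain library, CD3D at 0.274 TPM, CD3G at 0.584 TPM and CD2 at 0.649 TPM in its loin library, and ZAP70 at 131 TPM in its lymph library, where the other L lymph libraries had 78.9 to 89.4 TPM. CD3D was also low at 68.8 TPM in L lymph S0385 and at 0.204 TPM in ET brain S0242. CD8B was at 0.0878 TPM in ET loin S0235 and at 0 in the other ET loin libraries. Where all other libraries of a group are at 0, any value above 0 is flagged, so the stated chance rate does not hold there. This applies to CD3E and CD3G in L backfat S0349 and to CD8B in L backfat S0385 and ET loin S0235.

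The test of the ET minus L difference between tissues called CD3E (adjusted p = 0.0282), CD3Z (adjusted p = 0.00011) and CD2 (adjusted p = 0.0226, limma F test over 45 libraries with the animal as a block). These were 3 of 10 members, a share near the 27.6% of all genes called. The calls of CD3E and CD2 were lost after median-ratio scaling (adjusted p 0.101 and 0.0574) and without the block (0.0524 and 0.0705), that of CD3Z with the transcript that matched from residue 1 (0.403) or 1 transcript per gene (0.277), and all 3 with all 50 libraries.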

How the results depend on the processing

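All 10 members were called higher in lymph against each other tissue under every alternative run, each left-out library included. The replicate block (tissues of an animal paired) kept 10 members in each lymph contrast and gave 8 instead of 7 higher in brain against loin; without the replicate block 1 member had an interaction instead of 3. That count was 0 with all 50 libraries, 6 with a pseudocount of 0.1 and 1 after median-ratio scaling. In backfat ET against L, 4 members were called higher, 7 in 1 fit of all 45 libraries and 0 to 5 with a library left out. With all 50 libraries the counts were 1 lower in backfat against brain, 1 higher in backfat against loin, 1 higher in backfat against tenderloin, 3 higher in brain against loin and 0 lower in loin against tenderloin. With a pseudocount of 0.1 they were 6 lower in backfat against brain, 1 lower in backfat against tenderloin, 5 higher in brain against tenderloin and 3 lower in loin against tenderloin. With median-ratio scaling they were 2 higher and 1 lower in backfat against brain, 2 higher in backfat against loin, 1 higher and 1 lower in backfat against tenderloin and 3 higher in brain against loin. With 1 transcript per gene they were 1 lower in backfat against brain, 1 higher in backfat against tenderloin and 0 lower in loin against tenderloin. An E value of at most 1e-50 gave 1 lower in backfat against brain, and CD3Z from the transcript aligned to residue 1 gave 0 lower in loin against tenderloin. Leaving out a library gave 0 to 1 higher and 1 to 3 lower in backfat against brain and 3 to 5 higher in brain against tenderloin. The cause of these changes was not tested. In backfat the split of all genes was 895 higher and 113 lower, and 483 and 222 once libraries were scaled by median ratios, with a median gene at 0.02 instead of 0.26. Loin had 698 higher and 2510 lower, and 1199 and 1354 after scaling. Counting each member in each comparison under each setting, no called value reversed among 1525 values under other settings and 4911 values with a library left out. Depth is unknown, so levels under about 0.1 TPM limit CD4 and CD8B outside lymph tissue.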

Other observations

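In loin no member was called between the types, and over all genes 5.41% were called higher and 19.4% lower in ET. Among natural killer and cytotoxic genes, 4 of 12 tested were higher in ET than in L loin. These were GZMB by 0.61 (SE 0.18, adjusted p = 0.0304), GZMM by 1.07 (SE 0.35, adjusted p = 0.0438), GNLY by 1.11 (SE 0.30, adjusted p = 0.022) and TYROBP, an adaptor of natural killer and myeloid receptors, by 0.52 (SE 0.15, adjusted p = 0.0294, all limma on log2(TPM + 1)). PTPRC was also higher in ET loin, by 0.53 (SE 0.16, adjusted p = 0.0372). The 3 red cell genes included 2 called higher in ET loin. GNLY averaged 18.4 ± 7.52 TPM in ET lymph (SD, n = 4) and 17.8 ± 5.75 TPM in L lymph (n = 5), beside 61.2 ± 39.6 TPM in ET backfat (n = 5) and 7.64 ± 7.44 TPM in L backfat (n = 4), and over both types it was not called between lymph and backfat (-0.02, adjusted p = 0.969, limma).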
